A study of Homo sapiens with 45 samples.

Results

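Single H1 human embryonic stem cells were ordered by their level of mRNAs that belong to the passage from G1 into S phase, and the 12 highest cells were set against the 12 lowest. These 24 cells were taken from 38 scored cells, out of 45 in the series. The score of a cell was the mean log2(CPM + 1) of CCNE2, CDC6, MCM2, MCM5, MCM6, PCNA, SLBP and UNG, minus the mean of that value in its own preparation group. CPM is the count of a gene per 1000000 counts of its cell. The last high cell scored 0.33 and the next cell below it 0.29. At the other edge the first low cell scored -0.40 and the next cell above it -0.38, so both edges lie in a continuous range of cells.

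H1 is an established human embryonic stem cell line, used here at passage 40 and grown on Matrigel in mTeSR1 medium. The series compared FRISCR, a protocol that recovers RNA from fixed and stained single cells after reversal of the fixation, with direct lysis in Triton X-100, in live and in fixed cells. The 12 high cells were 6 live FRISCR, 3 fixed FRISCR and 3 live Triton cells. The 12 low cells were 4 live FRISCR, 4 fixed FRISCR and 4 live Triton cells. Another 14 cells lay between them, and 7 fixed Triton cells were not scored. Live cells were labelled DAPI- and fixed cells DAPI+, and no cell carried a genetic change or a drug. The labels name no separate cultures, so the high and the low cells are each 1 sample from 1 line. Cells are not replicates, and no p-value is given for any difference between them.

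Passage into S phase is driven by cyclin E with its kinase CDK2 and by E2F transcription factors, which the retinoblastoma family of proteins holds back. E2F targets include the MCM helicase, the clamp PCNA, enzymes that make deoxynucleotides and the cyclin E genes themselves. Later in the cycle another set of genes, for spindle, kinetochore and mitotic kinases, is switched on through promoter letters known as the cell cycle genes homology region. Embryonic stem cells are known for a short G1 phase and for cyclin E levels that vary less over the cycle than in somatic cells.

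The promoters of some genes on which the comparison turns are shown to give the letters these programmes are read from. The windows come from RefSeq promoters of GRCh38.p14, 60 bases of the 250 bases before the gene start, written 5′ to 3′ on the strand of the gene. Capitals mark any of 4 words of E2F (TTTGGCGC, TTTCCCGC, TTTCGCGC, TTTGCCGC) on either strand. In MCM6 a pair of these words overlaps.
MCM6, chr2:135876496-135876555, minus strand: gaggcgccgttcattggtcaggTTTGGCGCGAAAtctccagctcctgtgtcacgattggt
CDC25A, chr3:48188428-48188487, minus strand: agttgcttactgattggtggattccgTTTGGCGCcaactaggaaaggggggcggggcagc
E2F1, chr20:33686386-33686445, minus strand: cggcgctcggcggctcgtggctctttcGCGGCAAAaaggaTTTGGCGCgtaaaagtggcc
CDCA7, chr2:173354781-173354840, plus strand: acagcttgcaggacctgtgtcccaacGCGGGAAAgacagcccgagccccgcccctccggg
The next windows are from genes of the mitotic list that were lower in the high cells, with TTTGAA, or TTCAAA where it lies on the other strand, in capitals.
KIF23, chr15:69414267-69414326, plus strand: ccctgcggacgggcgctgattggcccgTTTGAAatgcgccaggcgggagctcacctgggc
MKI67, chr10:128126424-128126483, minus strand: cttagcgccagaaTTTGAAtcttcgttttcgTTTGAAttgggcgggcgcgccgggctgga
GTSE1, chr22:46296810-46296869, plus strand: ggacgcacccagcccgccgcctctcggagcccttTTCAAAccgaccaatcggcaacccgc
CDC25C, chr5:138331805-138331864, minus strand: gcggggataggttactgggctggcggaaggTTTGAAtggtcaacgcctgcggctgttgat

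An E2F word stood in the 250 bases before the start of 3 of the 6 score genes with a RefSeq promoter. A gene was counted once, as holding a word if any of its promoters did. Of the G1 cyclin and E2F regulator list below, 7 of 22 genes with a promoter (31.8%) held one. Of the origin licensing list 9 of 24 (37.5%) did. Over the 6466 measured genes with a promoter the share was 6.11%, and over all 27305 genes with a RefSeq promoter it was 3.40%. TTTGAA was held by 28 of 47 genes of the G2/M list with a promoter (59.6%). The share was 11.7% of the measured genes and 16.1% of all genes with a promoter. These shares describe the lists as chosen. Genes picked by the score comparison alone did not stand out in the same way. Of the genes higher in both library sets, 13 of 217 with a promoter (5.99%) held an E2F word. Of the genes lower in both, 32 of 210 with a promoter (15.2%) held TTTGAA.

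The score had a median of 0.81 in the high cells (0.33 to 1.95) and -0.66 in the low cells (-1.36 to -0.40). Depth differed little, with a median of 4700171.5 counts in the high cells and 4794284 in the low cells, and the 38 cells held 3616109 to 6594043 counts. After each cell was thinned to 1000000 counts, a median of 9035 genes had a count in the high cells (8639 to 10068) and 9295 in the low cells (7979 to 10305). The share of counts in ribosomal protein genes had a median of 6.16% in the high cells and 5.68% in the low cells. No pair of the 45 cells held identical values, and the highest correlation between any pair was 0.85. Of 9 stem cell markers, 8 had a count in all 24 cells, and their summed level had a median of 5662 CPM in the high cells (4061 to 7336) and 5338 CPM in the low cells (3387 to 6592). T, MIXL1, SOX17, FOXA2, GATA4 and GATA6, which mark mesoderm and endoderm, were at 0 in all 24.

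**Figure D1:**
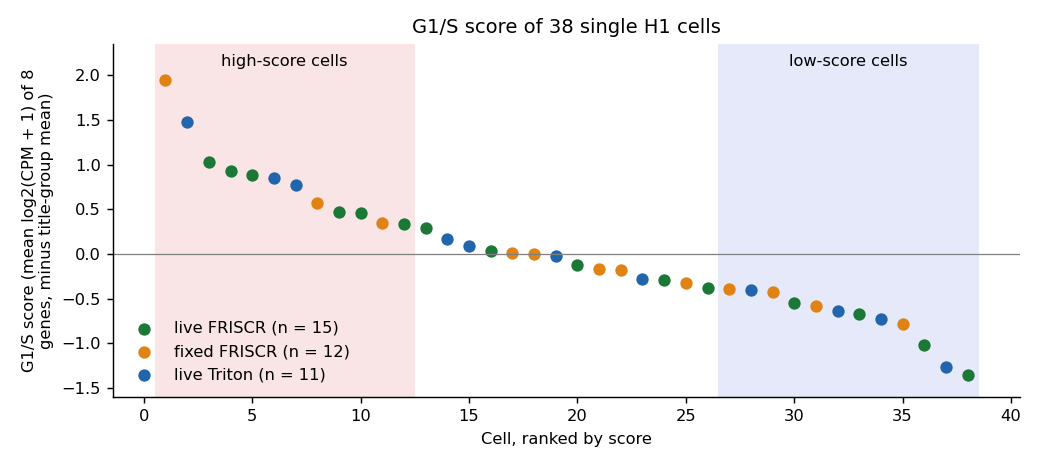
G1/S score of each of the 38 cells (y axis, mean log2(CPM + 1) of 8 genes minus the mean of the preparation group) by rank (x axis), coloured by preparation, with the 12 high and the 12 low cells shaded. All 3 preparations are present on both sides, and the score has no gap at either edge.

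The genes of the score chose the cells, so their values are a description. SLBP, which binds the stem-loop at the end of histone mRNA, made up 25.4% of the difference in score between the sides. It had a median of 108.8 CPM in the high cells (21.5 to 162.1) and 15.4 CPM in the low cells (0 to 130.7). CCNE2, a cyclin E, made up another 19.9% and had a count in 8 of 12 high cells and in 1 of 12 low cells. Its highest level was 91.0 CPM in the high cells and 0.18 CPM in the low cells. Both thus weighed more in the order of the cells than MCM5, which made up 5.0%. MCM6, a helicase subunit, had a median of 227 CPM in the high cells (44.2 to 684) and 74.9 CPM in the low cells (0 to 270). MCM2, of the same ring, had 269 CPM in the high cells (49.8 to 450) and 95.7 CPM in the low cells (9.06 to 191). CDC6, which loads the helicase, had 256 CPM in the high cells (142 to 453) and 118 CPM in the low cells (7.48 to 255). The remaining score genes had smaller gaps. PCNA, the sliding clamp, had a median of 329 CPM in the high cells and 196 CPM in the low cells, and MCM5 had 297 CPM in the high cells and 179 CPM in the low cells. UNG, which removes uracil from DNA, had 222 CPM in the high cells and 154 CPM in the low cells. Across the 38 cells, 27 of the 28 pairs of score genes had a Spearman correlation above 0, with a median of 0.25 and a range of -0.05 to 0.49.

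For every other gene the difference was the mean log2(CPM + 1), centred on the preparation group, of the high cells minus that of the low cells. Of the 8843 genes that averaged 10 CPM or more, 849 (9.6%) were at least 1 log2 unit higher in the high cells and 781 (8.83%) at least 1 log2 unit lower. Both shares are the background against which the counts below are read. They were not matched to the level of the genes in any list. With a pseudocount of 10 CPM in place of 1, 86 genes were higher and 143 lower by as much. The median over all 8843 genes was 0.05, and the middle 90% of genes lay between -1.30 and 1.33. The number code in the titles puts the cells in 2 library sets, of which set 1 held 5 high and 6 low cells and set 2 held 7 high and 6 low cells. Differences in set 1 and in set 2 had a Pearson correlation of 0.02 across the 8843 genes, and genes are not independent replicates. At least 1 log2 unit higher in both sets were 294 genes (3.32%), and 289 (3.27%) were lower by as much in both. The SD between cells of the same side had a median of 1.88 log2 units, so a gene past 1 log2 unit was usually still within the spread of single cells.

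Regulators of S-phase entry were past the fold in the high cells more often than genes at large. Of 27 measured genes for G1 cyclins, E2F factors and their regulators, 9 (33.3%) were at least 1 log2 unit higher and 3 (11.1%) at least 1 lower, with a list median of 0.58. In both library sets 7 were higher and 0 lower, namely CDK2, CDC25A, E2F5, E2F8, FBXO5, SKP2 and CDCA7. Above 0 in both sets were 14 of the 27, beside 28.5% of all genes, and the list median came to 0.18 for set 1 and 0.70 for set 2. Within preparations it was 0.63 in live FRISCR, 0.95 in fixed FRISCR and 0.61 in live Triton cells, beside medians over all genes of -0.06, 0.26 and 0.01. Across the 38 cells the mean of the list had a Spearman correlation of 0.53 with the score, and of 0.50, 0.40 and 0.32 within those preparations of 15, 12 and 11 cells. Each of these correlations shares its counts and depth with the score.

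CCNE1, the other cyclin E gene and no part of the score, had a median of 51.9 CPM in the high cells (0 to 103.4) and 0 CPM in the low cells (0 to 70.6). The ranges overlapped, and CCNE1 had a count in 9 of 12 high and 5 of 12 low cells. Its difference was 2.51 log2 units, 0.90 in set 1 and 3.56 in set 2. CCNE1 was thus high in most but not all high cells, and the gap came mainly from set 2. CDK2, the kinase that cyclin E activates, had 42.7 CPM in the high cells (0 to 116.7) and 13.0 CPM in the low cells (0.52 to 99.4), a difference of 1.43 that turned to -0.21 within live FRISCR cells. CDC25A, the phosphatase that activates CDK2, had 30.3 CPM in the high cells (0 to 108.9) and 0.20 CPM in the low cells (0 to 22.5), a difference of 2.40. For CDC25A, 10 of 12 high cells were above the median of the low cells and 1 of 12 low cells was above the median of the high cells, after centring on the preparation. SKP2, which marks the CDK inhibitor p27 for destruction, had 105 CPM in the high cells (23.9 to 134.7) and 34.3 CPM in the low cells (9.43 to 115.3). Its difference of 1.33 was 1.39 in set 1 and 1.42 in set 2, and 1.44, 1.45 and 1.16 in live FRISCR, fixed FRISCR and live Triton cells. SKP2 was among the steadiest of these genes across sets and preparations. FBXO5, an inhibitor of the anaphase-promoting complex, had 85.4 CPM in the high cells (18.9 to 192) and 39.1 CPM in the low cells (0 to 130), a difference of 2.03.

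E2F1, an activating E2F, had a median of 29.1 CPM in the high cells (0 to 90.8) and 0 CPM in the low cells (0 to 33.2). Summed over the cells of each side, E2F1 reached 34.8 CPM in the high cells (exact Poisson 95% interval 33.3 to 36.4) and 4.93 CPM in the low cells (4.37 to 5.53), where the intervals cover counting error only. The difference in E2F1 was 2.67 log2 units, but 0.11 in set 1 and 4.74 in set 2, so it rests on the cells of set 2. E2F1 and CCNE1 were often seen together. At least 10 CPM of both were present in 7 of 12 high cells, 4 of 14 middle cells and 1 of 12 low cells, and at least 10 CPM of neither in 3 high, 7 middle and 8 low cells. E2F5, a member that binds the pocket proteins and represses, had 18.4 CPM in the high cells (0 to 66.6) and 0 CPM in the low cells (0 to 15.8), a difference of 2.09. E2F8, an atypical repressor, had 3.59 CPM in the high cells (0 to 79.8) and 0 CPM in the low cells (0 to 42.01), a difference of 2.04 that was -0.04 within fixed FRISCR cells. CDCA7, which works with the chromatin remodeller HELLS, had the highest difference of the list, at 2.86, with 2.56 in set 1 and 3.14 in set 2. CDCA7 had 92.1 CPM in the high cells (37.3 to 185.7) and 10.1 CPM in the low cells (0 to 206.8), and all 12 high cells were above the median of the low cells.

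The 3 pocket proteins had differences below -1, which for RB1 and RBL1 the library sets did not share. RB1, the retinoblastoma protein, had a median of 2.39 CPM in the high cells (0 to 69.4) and 48.2 CPM in the low cells (0 to 98.2). The RB1 difference of -1.51 was -3.81 in set 1 and 0.19 in set 2, and -3.57 within live FRISCR cells. RBL1 differed by -1.27, with 0.11 in set 1 and -2.40 in set 2. RBL2 differed by -1.21, with -1.50 in set 1 and -0.77 in set 2. The other cyclins and kinases named here hardly separated the sides. CDK4 had a median of 348 CPM in the high cells and 293 CPM in the low cells, a difference of 0.23. CCND2, a cyclin D, differed by -0.05 and CCNA2, a cyclin A, by 0.21. CDKN2C was at 0 in all 38 cells.

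**Figure D2:**
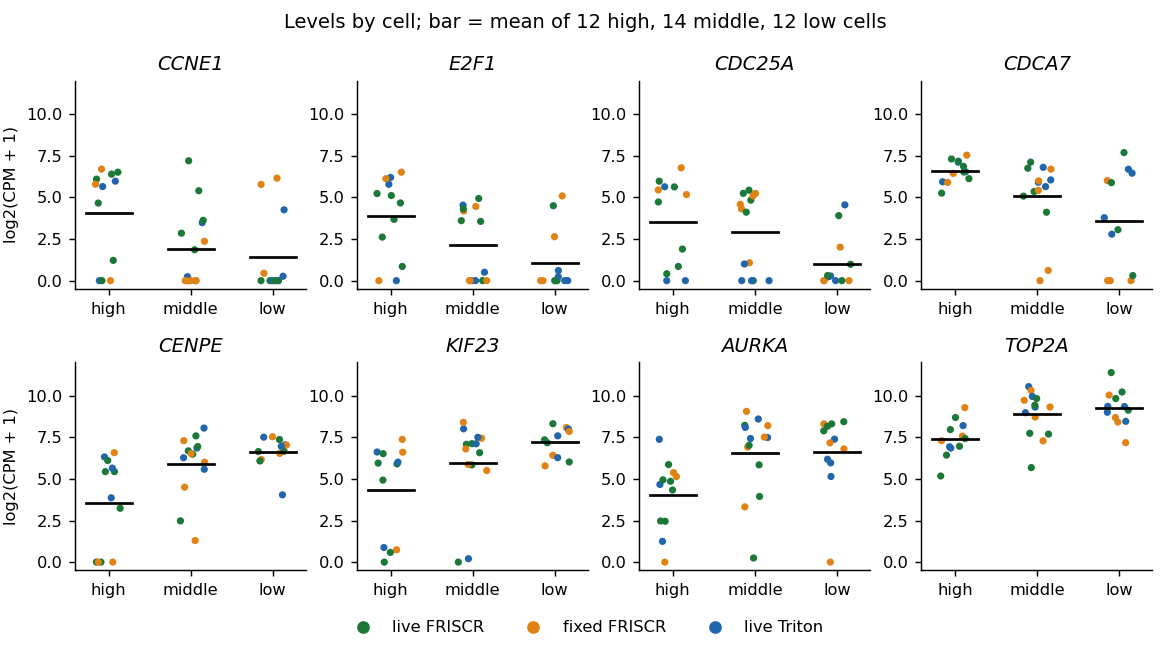
Level of 8 genes in each cell (y axis, log2(CPM + 1)) for the high, middle and low cells (x axis), coloured by preparation, with the mean of each side as a bar. CCNE1, E2F1, CDC25A and CDCA7 are higher in most high cells than in most low cells, CENPE, KIF23, AURKA and TOP2A are lower, and every gene overlaps between the sides.

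The replication machinery outside the score lay nearer to the background than its regulators, in a comparison that was not matched for the level of the genes. MCM6, MCM2 and CDC6, which differed by 2.12, 1.22 and 1.14, had chosen the cells and were not in the origin licensing list. That list therefore does not describe the machinery as a whole. Of 28 genes for origin licensing and the replicative helicase, 3 (10.7%) were at least 1 log2 unit higher and 0 lower, a share close to the background of 9.6%, with a list median of 0.37. Set 1 alone gave -0.02 and set 2 alone 0.37. In both library sets 1 of the 28 was at least 1 log2 unit higher. MCM10, which helps switch the helicase on, had the highest difference, 1.72, or 2.93 in set 1 and 0.65 in set 2. Within preparations it was 2.19 in live FRISCR, 2.515 in fixed FRISCR and 0.50 in live Triton cells. MCM10 had a median of 86.4 CPM in the high cells (2.42 to 237) and 57.4 CPM in the low cells (0 to 91.3). The others past 1 log2 unit were RECQL4, a helicase needed to start replication, at 1.53, and MCMBP, an MCM-binding protein, at 1.35, which was -0.56 within live FRISCR cells. MCM3, a helicase subunit outside the score, had 558 CPM in the high cells (331 to 800) and 417 CPM in the low cells (162 to 752), a difference of 0.45. MCM4 and MCM7 differed by 0.50 and 0.39. MCM8, a paralogue that acts in recombination, had the lowest difference, -0.82.

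Of 37 polymerase and fork genes, 3 (8.11%) were at least 1 log2 unit higher and 2 (5.41%) lower, with a median of 0.17 that was -0.02 within fixed FRISCR cells. RFC3, of the complex that loads PCNA, differed by 2.103, or 1.17 and 3.01 in sets 1 and 2. It had 96.8 CPM in the high cells (28.3 to 272) and 74.6 CPM in the low cells (0 to 164). The RFC3 difference was 4.53 in live FRISCR, 1.20 in fixed FRISCR and 0.21 in live Triton cells. UHRF1, which reads hemimethylated DNA behind the fork, had 162 CPM in the high cells (21.0 to 266) and 39.7 CPM in the low cells (15.8 to 238), a difference of 1.00. All 12 high cells were above the low median for UHRF1 after centring, although its difference was -0.75 within fixed FRISCR cells. POLA1, the catalytic subunit of the priming polymerase, differed by 1.09, and by -0.08 within fixed FRISCR cells. POLD1, the catalytic subunit of polymerase delta, and CHTF18, of an alternative clamp loader, differed by -1.61 and -1.86, and POLD1 by 0.42 within fixed FRISCR cells. Of 25 nucleotide supply genes, 20 were above 0, beside 54.0% of all genes, and 0 passed 1 log2 unit either way, with a median of 0.26. Above 0 in both library sets were 14 of them, and the median was 0.26 in live FRISCR, -0.01 in fixed FRISCR and 0.02 in live Triton cells. RRM2, the regulated subunit of ribonucleotide reductase, had 488 CPM in the high cells (163 to 682) and 228 CPM in the low cells (90.0 to 385), a difference of 0.89. TK1, thymidine kinase, had 116 CPM in the high cells (71.7 to 243) and 56.3 CPM in the low cells (33.2 to 206), a difference of 0.85. PAICS, of purine synthesis, differed by 0.00.

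In the repair list, 3 of 26 genes (11.5%) were at least 1 log2 unit higher and 2 (7.69%) lower, and the list median was -0.004. EXO1, an exonuclease of mismatch repair and end resection, had a median of 50.7 CPM in the high cells (24.4 to 138) and 2.64 CPM in the low cells (0 to 116). It had a count in all 12 high cells and in 6 of 12 low cells, and its difference of 2.64 was 2.31 in set 1 and 2.97 in set 2. RAD54L, of homologous recombination, differed by 1.39, and by -0.06 within live FRISCR cells. CHEK1 and ATR, kinases of the replication checkpoint, differed by -1.16 and -1.89. The ATR difference was -5.12 in set 1 and 1.06 in set 2.

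Mitotic genes were lower in the high cells more often than genes at large. Of 56 measured G2/M genes, 20 (35.7%) were at least 1 log2 unit lower and 0 higher, beside a background of 8.83% and 9.6%, and the list median was -0.55. Below 0 were 46 of the 56, beside 46.0% of all genes, and 35 of them in both library sets, beside 23.2% of all genes. At least 1 log2 unit lower in both sets were 12 (CDK1, TOP2A, MKI67, KIF23, HJURP, CDCA2, CDCA3, CDCA8, CDC25C, TTK, CENPE and ASPM). Set 1 alone gave a list median of -0.25 and set 2 alone of -1.03. The summed level of the list had a median of 6247 CPM in the high cells (4944 to 11589) and 9094 CPM in the low cells (6033 to 20059).

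CENPE, a kinesin of the kinetochore, had the lowest difference of the list, -3.01, with -2.49 in set 1 and -3.40 in set 2. It had a median of 27.95 CPM in the high cells (0 to 94.7) and 112 CPM in the low cells (15.5 to 185), and a count in 8 of 12 high and in all 12 low cells. KIF23, a kinesin of the central spindle, had 59.8 CPM in the high cells (0 to 165) and 177 CPM in the low cells (54.2 to 318), a difference of -2.74. For KIF23 none of the 12 high cells was above the median of the low cells after centring, and 10 of 12 low cells were above the median of the high cells. RACGAP1, which forms the centralspindlin complex with KIF23, was found among the genes lower in both sets across all genes. RACGAP1 had 11.8 CPM in the high cells (0 to 89.0) and 86.2 CPM in the low cells (0 to 213), a difference of -3.28. AURKA, a kinase of the spindle poles, had 26.2 CPM in the high cells (0 to 166) and 155 CPM in the low cells (0 to 347), a difference of -2.51. Its difference was -0.93 in set 1 and -3.70 in set 2. TOP2A, which untangles sister chromosomes, had 164 CPM in the high cells (35.2 to 624) and 606 CPM in the low cells (144 to 2690), a difference of -1.77. Summed over cells, TOP2A reached 211 CPM in the high cells (exact Poisson 95% interval 208 to 215) and 811 CPM in the low cells (804 to 819). The TOP2A difference was -1.48 in set 1 and -1.93 in set 2, but it varied between preparations, with -3.04 in live FRISCR, -0.53 in fixed FRISCR and -1.72 in live Triton cells. CDC25C, the phosphatase that activates CDK1, had 0.31 CPM in the high cells (0 to 58.9) and 28.9 CPM in the low cells (0 to 106), a difference of -2.28. GTSE1, a microtubule-binding protein of G2 and mitosis, had 9.37 CPM in the high cells (0 to 23.9) and 38.7 CPM in the low cells (4.70 to 99.3), a difference of -2.08. MKI67, the proliferation marker, differed by -1.53, HJURP, the chaperone of the centromeric histone, by -1.93, and CDK1 by -1.28. CCNB1, cyclin partner of CDK1, had 276 CPM in the high cells (91.6 to 859) and 377 CPM in the low cells (219 to 1006). Its small difference of -0.25 was -1.30 in live FRISCR, 0.88 in fixed FRISCR and -0.02 in live Triton cells. The highest member was KIF4A, a chromosome kinesin, at 0.66.

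The mitotic difference was not shared by the preparations. In live FRISCR cells the mean of the list per cell, centred on the preparation, was -0.36, -1.37, -0.80, -0.61, -0.78 and 0.12 in the high cells, and 1.55, 0.59, 0.74 and 1.30 in the low cells. No high live FRISCR cell reached a low one. In live Triton cells it was -1.04, -1.37 and 0.01 in the high cells, and 0.54, 0.13, 0.03 and -0.37 in the low cells, where 1 low cell lay within the range of the high cells. In fixed FRISCR cells it was -0.66, 0.27 and 0.08 in the high cells, and -0.83, -0.51, 0.48 and -0.73 in the low cells, so these overlapped. The median difference over the 56 genes was -1.36 in live FRISCR, 0.29 in fixed FRISCR and -0.50 in live Triton cells, beside -0.06, 0.26 and 0.01 over all genes. Of the genes named above, CENPE, KIF23, AURKA and GTSE1 were lower by over 2 log2 units in fixed FRISCR cells too, whereas TOP2A was -0.53, CDK1 0.62, CDC25C 0.88, TTK 1.39 and CDCA8 2.41. The Spearman correlation of the list mean with the score was -0.40 over the 38 cells, and -0.73, 0.29 and -0.29 in live FRISCR, fixed FRISCR and live Triton cells. Whether the preparations differ was not tested.

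**Figure D3:**
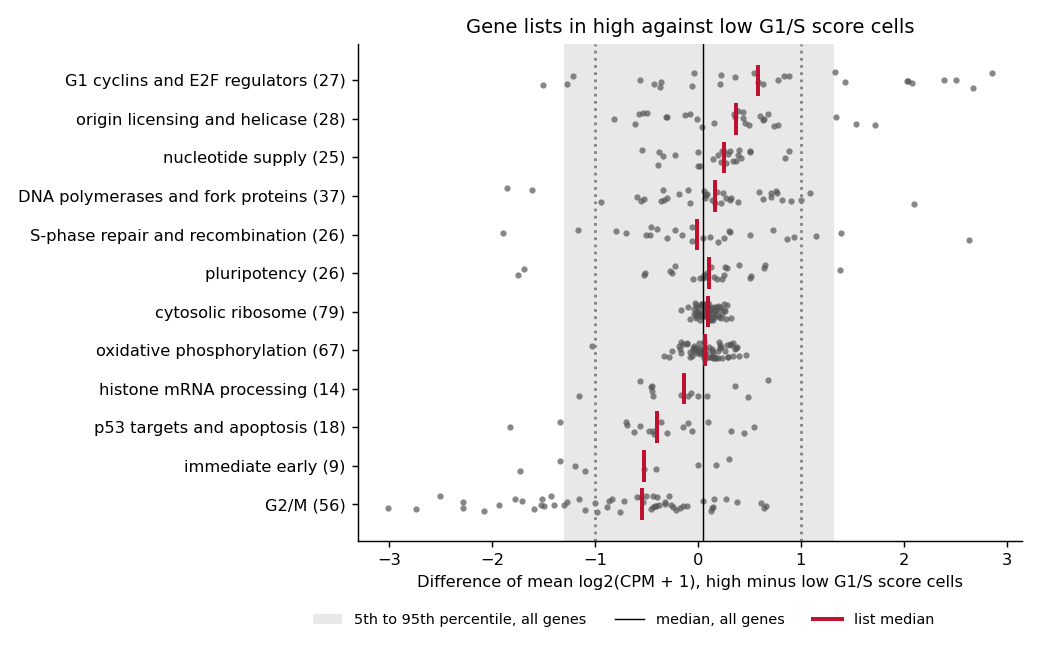
Difference in mean log2(CPM + 1), high minus low cells (x axis), of each measured gene (points) in 12 gene lists (y axis, number of genes in brackets), with the median of each list as a red bar. The shaded band holds the middle 90% of all genes and the dotted lines mark 1 log2 unit. The G1 cyclin and E2F list has its median at 0.58 and the G2/M list at -0.55.

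**Figure D4:**
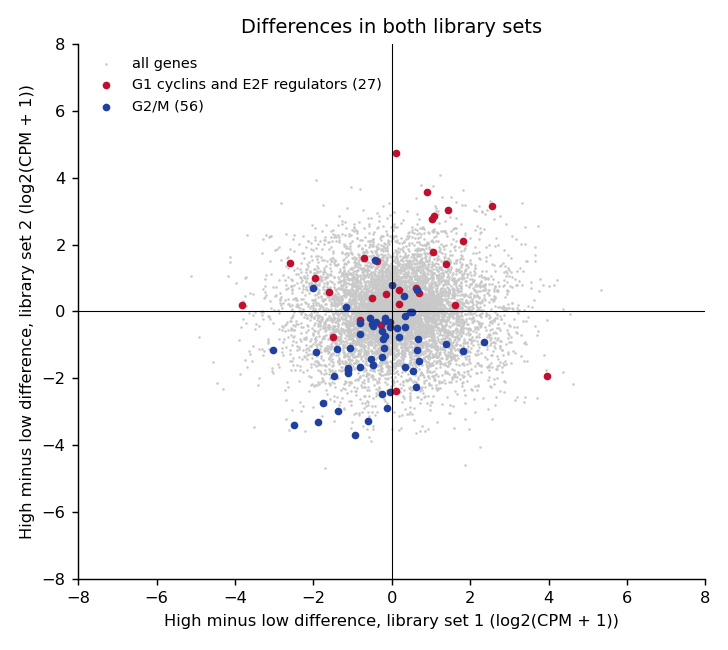
Difference, high minus low cells, in library set 1 (x axis) against library set 2 (y axis), in log2(CPM + 1), for all measured genes (grey), 27 G1 cyclin and E2F genes (red) and 56 G2/M genes (blue). All genes form a round cloud with a correlation of 0.02, while 35 blue points lie below 0 in both sets and 14 red points above 0 in both.

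Replication-dependent histone mRNA, made in S phase and ending in a stem-loop in place of a poly(A) tail, was read in the live Triton cells. There the median sum over 66 histone genes was 469.5 CPM, with 61 of them seen in at least 1 cell, against 72.7 CPM in live FRISCR and 49.0 CPM in fixed FRISCR cells. The sum was 469.5, 1051 and 312 CPM in the 3 high cells, and 322, 1091, 1272 and 567 CPM in the 4 low cells. The groups overlapped over most of their range. The 4 middle cells had 357, 355, 1691 and 96.9 CPM, so both the highest and the lowest cell, 17.4-fold apart, were neither high nor low by score. The mean was 611 CPM in the high cells (SD 389, n = 3) and 813 CPM in the low cells (SD 443, n = 4), a log2 ratio of -0.41 set against these SDs. The ratio in set 1 alone was -2.03, from the high cell with 312 CPM against the low cell with 1272 CPM. Set 2 alone gave 0.20, from the high cells with 469.5 and 1051 CPM against the low cells with 322, 1091 and 567 CPM. With 19 cells taken per side the ratio was 0.08, so its direction was not stable. Across the 11 cells the histone sum had a Spearman correlation of -0.25 with the score and -0.38 with the mean of the G2/M list, which is given as a description.

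HIST1H4C, a histone H4 gene and the largest part of the sum, had 269, 581 and 156 CPM in the high live Triton cells, and 219, 616, 822 and 397 CPM in the low ones. Histone levels of a cell, as captured here, did not follow its SLBP level. Rows named for ribosomal RNA held 0.565% to 1.895% of counts in the live Triton cells and at most 0.019% in FRISCR cells. Whether the capture of RNA without a poly(A) tail differed between the live Triton cells was not tested. The low cell with 1272 CPM of histone mRNA (exact Poisson 95% interval 1241 to 1304) had 0 CPM of SLBP, and the low cell with 1091 CPM had 8.90 CPM of SLBP. The high cell with 1051 CPM had 154 CPM of SLBP and the high cell with 312 CPM had 30.9 CPM. Across the 11 cells the Spearman correlation between the histone sum and SLBP was -0.22. Of 14 measured genes for the processing of histone mRNA, 1 was at least 1 log2 unit lower and 0 higher, with a median of -0.13.

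**Figure D5:**
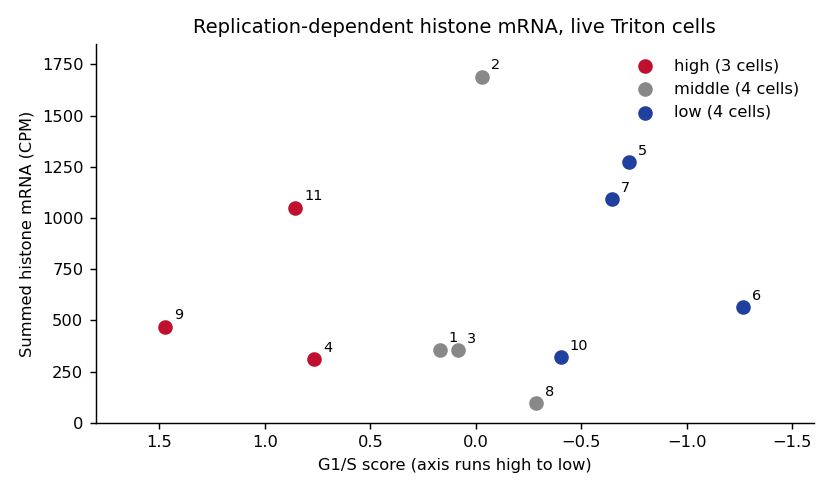
Summed level of replication-dependent histone mRNA (y axis, CPM) against the G1/S score (x axis, running from high to low) in each of the 11 live Triton cells, with the number of each cell beside its point. The 3 high cells lie between 312 and 1051 CPM and the 4 low cells between 322 and 1272 CPM.

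Stem cell identity and growth genes were close between the sides. Of 26 pluripotency genes, 1 was at least 1 log2 unit higher and 2 lower, with a median of 0.11. POU5F1, the central pluripotency factor, had a median of 1102 CPM in the high cells (662 to 1566) and 1054 CPM in the low cells (189 to 1596). SOX2 differed by 0.09 and NANOG by 0.64. The 2 that were lower by at least 1 log2 unit were GDF3, a secreted relative of NODAL, at -1.75 (0.18 within live FRISCR cells), and PRDM14, a repressor of differentiation, at -1.69. Of 79 ribosomal protein genes, 66 were above 0, beside 54.0% of all genes, and 39 were above 0 in both sets, beside 28.5%. They lay within a range of -0.16 (RPL36A) to 0.33 (RPS12), and their median of 0.10 was near the 0.05 of all genes. Of 67 oxidative phosphorylation genes, 1 was past 1 log2 unit, the complex I subunit NDUFS1 at -1.02 (0.14 in set 1), with a median of 0.07.

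The stress and damage lists held few measured genes. Of 9 measured immediate early genes, 4 (44.4%) were at least 1 log2 unit lower and 0 higher, with a median of -0.53, beside a background of 8.83% lower. They were KLF6 at -1.73, EGR1 at -1.34, SRF at -1.19 and FOSL1 at -1.10, all transcription factors, and 1 of them, KLF6, was past 1 log2 unit in both library sets. Within single preparations the sign turned for KLF6 (1.55 in fixed FRISCR) and FOSL1 (1.98 in live FRISCR cells). Of 18 p53 target and apoptosis genes, 2 (11.1%) were at least 1 log2 unit lower and 0 higher, a share close to the background of 8.83%. Below 0 were 14 of the 18, beside 46.0% of all genes, and 8 in both library sets, beside 23.2% of all genes. The list median of -0.39 was not shared by the preparations, with 0.29 in live FRISCR, -0.50 in fixed FRISCR and -1.22 in live Triton cells. The 2 genes lower by at least 1 log2 unit were FDXR, ferredoxin reductase, at -1.83 and DDB2, of nucleotide excision repair, at -1.34 (0.06 in set 2). CDKN1A, the p53 target that inhibits CDK2, had a count in 5 of 12 high and 7 of 12 low cells, and differed by -0.42, with -2.59 in set 1 and 1.45 in set 2.

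Markers of other cell types were sparse. Of 17 neural and radial glia genes, 6 were measured, with a median of -0.29, and the glutamate transporter SLC1A3, at -2.44, was the gene past 1 log2 unit. The summed CPM of the neural list had a median of 715 in the high cells (306 to 1114) and 823 in the low cells (463 to 1929), with SOX1, HES5 and HOPX at 0 in all 38 cells. Of 15 mesoderm and endoderm genes, KDR alone was measured, at -1.49, and 9 were at 0 in all cells. Of 12 trophoblast genes, KRT7 alone was measured, at -1.17 (0.32 in set 1 and 0.76 within fixed FRISCR cells), and 5 were at 0 in all cells, CDX2 and GATA2 among them. The 7 measured fibroblast genes had a median of -0.02 with 0 past 1 log2 unit, and COL3A1, LUM, DCN and POSTN were at 0. The summed CPM of the fibroblast list had a median of 747 in the high cells (366 to 1268) and 762 in the low cells (270 to 1144). The part of other cell types in the cell cycle lists was not tested.

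Across all genes, those with the largest differences in both library sets were mostly outside these lists. Ranked by the smaller of the set differences, ABL1, a tyrosine kinase with nuclear and cytoplasmic roles, came first among the higher genes. ABL1 had a median of 76.1 CPM in the high cells (28.6 to 94.9) and 3.11 CPM in the low cells (0 to 61.4), a difference of 3.27, or 3.33 and 3.25 in sets 1 and 2. All 12 high cells were above the low median for ABL1 after centring, and its difference was 3.09 in live FRISCR, 3.09 in fixed FRISCR and 4.17 in live Triton cells. UCHL5, a deubiquitinase of the proteasome, had 85.9 CPM in the high cells (48.2 to 210) and 26.2 CPM in the low cells (0 to 144), a difference of 2.76 that was -0.33 within live Triton cells. Others of the first 12 were GALNT14, GORASP1, LGTN, CDCA7, TMEM43, FAM115A, NAV2, C6orf70 and ACSS2, with differences of 2.41 to 3.04. Among the lower genes HERC4, an E3 ubiquitin ligase, came first, with 0.20 CPM in the high cells (0 to 46.9) and 61.4 CPM in the low cells (0 to 217). The HERC4 difference of -3.50 was -3.52 in set 1 and -3.44 in set 2. The others were HYLS1, USP6NL, TRAPPC6B, PIPOX, CENPE, JMJD5, CLCN7, RACGAP1, CYP26A1, PCNXL3 and PARP11, with differences of -3.28 to -2.42. Not all of the ranked genes held their size within preparations. GORASP1 was 0.37 in live FRISCR cells, and USP6NL was -0.25 and JMJD5 -0.12 in fixed FRISCR cells. CYP26A1, which breaks down retinoic acid, had a median of 0 CPM in the high cells (0 to 101) and 21.6 CPM in the low cells (0 to 1229). Its difference was -5.77 in live FRISCR, -0.51 in fixed FRISCR and -0.92 in live Triton cells. These genes were selected from 8843 by their difference, and with 3.32% and 3.27% of all genes past 1 log2 unit in both sets their values are a description.

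Over all 38 cells, the genes whose level ordered most like the score, by Spearman correlation after centring, were ABL1 (0.64), HSPE1 (0.60), C12orf44 (0.57), ZWILCH (0.55) and PFN2 (0.55). HSPE1, a mitochondrial chaperonin, had a median of 647 CPM in the high cells (407 to 891) and 504 CPM in the low cells (210 to 786). ZWILCH, a kinetochore protein, had 197 CPM in the high cells (99.0 to 296) and 99.2 CPM in the low cells (7.16 to 191). Both separated the medians with wide overlap. The genes ordered most against the score were COIL (-0.68), RALGAPB (-0.59), HERC4 (-0.58), RACGAP1 (-0.57) and ATP2A2 (-0.54). COIL, the scaffold protein of Cajal bodies, had 17.0 CPM in the high cells (0.23 to 49.6) and 43.6 CPM in the low cells (18.3 to 135). No high cell was above the low median for COIL after centring, and 11 of 12 low cells were above the high median.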

How the data were processed

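The authors deposited estimated counts per gene (expected counts, not all whole: 40.3% of the values above 0 had a fraction) and TPM values per gene for 45 single H1 cells. Libraries were made with Smart-seq2 and Nextera XT, per the labels' protocols, which also describe cortical tissue that is not part of these samples. Reads were placed on GRCh37 (hg19), per the submitters' processing notes, with the aligner and counter not given in the sources used here. Rows carry gene symbols alone, so genes that share reads with a near-identical copy, such as the histones, are uncertain.

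Counts were rounded to whole numbers and divided by the total of the cell to give CPM. Over all 45 cells, totals were 3388417 to 6594043 counts in 23045 genes. Log2(CPM + 1) was centred on the title group, and the difference was high minus low. Genes averaging 10 CPM or more over 38 cells were measured, the score genes left out. A fold of 1 log2 unit stood in for a call, since each side is 1 sample and no test can be made. On this scale the change of genes low in every cell is understated, but cells at or near 0 can widen a difference. RFC3 differed by 2.10, while its level summed over cells was 119 CPM in the high and 75.7 CPM in the low cells. EXO1 differed by 2.64, with summed levels of 61.5 CPM in the high and 33.2 CPM in the low cells. Preparation groups and the 2 library sets came from the titles, where replicates have no number, so cells are numbered in accession order. The members and all 18 lists were chosen with earlier results of these data known.

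Genes named are the 8 score genes, the 12 genes each way with the largest smaller difference of the 2 library sets (a count in at least 60% of the cells of the higher side), the 3 most abundant and the most extreme members of each list, 4 histone genes, and the 5 genes most and least correlated with the score. List members past 1 log2 unit and others with a role in the pathway were named after their values were seen, and some genes are not reported here. Alternatives used edgeR 4.0.16 (TMM) and DESeq2 1.42.0 (median-of-ratios) for library sizes only, and the deposited TPM values. Work was done in Python 3.11.15 with pandas 2.3.3 and scipy 1.17.1, and in R 4.3.3. The steps were tested on simulated counts, where the size of known folds was checked without the spread between single cells. Counts with that spread were simulated too, but recovery was not checked against a limit there. Intervals are exact Poisson 95% intervals that cover counting error alone. Reads carry no molecular identifiers, so they are not independent molecules.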

Additional observations from a re-analysis of the deposited data

How the results depend on the processing

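The numbers of genes past 1 log2 unit depended on the processing. At least 1 higher were 849 genes, against 210 with a minimum of 50 CPM, 86 with a pseudocount of 10 CPM, 481 with 19 cells per side, 417 by the ratio of summed CPM, 1644 in library set 1 alone, and 1318, 2592 and 1530 in live FRISCR, fixed FRISCR and live Triton cells alone. At least 1 lower were 781 genes, against 153, 143, 451 and 488 under the same 4 settings, 1262 with 8 cells per side, 1318 and 1317 in set 1 and set 2 alone, and 1915, 1274 and 1753 in the 3 preparations alone. The causes were not tested. Leaving out 1 cell at a time gave 791 to 958 higher and 744 to 878 lower genes, and list medians of -0.70 to -0.46 (G2/M), 0.43 to 0.68 (G1 cyclins and E2F regulators), 0.24 to 0.44 (origin licensing), 0.10 to 0.24 (polymerases), 0.18 to 0.33 (nucleotide supply) and -0.12 to 0.13 (repair).

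The G2/M median of -0.55 was -1.36 in live FRISCR cells alone and reversed to 0.29 in fixed FRISCR cells alone, where the median over all genes was 0.26. The median of origin licensing reversed to -0.022 in library set 1 alone, and that of nucleotide supply to -0.007 in fixed FRISCR cells alone. The smaller medians of the polymerase list (0.17) and of oxidative phosphorylation (0.07) were -0.021 in fixed FRISCR and -0.052 in live Triton cells alone. The log2 ratio of histone mRNA, -0.41, was 0.076 with 19 cells per side, -2.03 in set 1 and 0.20 in set 2 alone, and -1.06 to -0.10 with 1 cell left out. In set 1 a single live Triton cell stood on each side. The G1 cyclin and E2F median stayed above 0 under all 26 settings (0.18 to 0.95).

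Of the 83 genes followed that differed by at least 1 log2 unit, 29 changed sign under at least 1 of the settings. Smaller differences were not given a sign here, and many of those changed sign too. In fixed FRISCR cells alone these were RB1 (0.11), ZNF473 (1.91), KLF6 (1.55), KRT7 (0.76), POLA1 (-0.077), POLD1 (0.42), UHRF1 (-0.75), E2F8 (-0.041), CDK1 (0.62), NUF2 (0.79), CKAP2L (1.64), KIF20A (1.95), KIF2C (0.052), CDCA8 (2.41), CDC25C (0.88), TTK (1.39), NEK2 (0.35) and PLK1 (1.78). In live FRISCR cells alone they were GDF3 (0.18), MCMBP (-0.56), CDK2 (-0.21), RAD54L (-0.063) and FOSL1 (1.98), and in live Triton cells alone UCHL5 (-0.33). In set 1 alone they were ZNF473 (0.021), NDUFS1 (0.14), KRT7 (0.32), RBL1 (0.11) and PLK1 (0.62), and in set 2 alone RB1 (0.19), ATR (1.06), FOSL1 (0.082) and DDB2 (0.055). RAD54L was -0.078 with 19 cells per side, and EGR1 0.005 with SLBP left out of the score. No paired analysis was possible because the labels give no replicate numbers shared between groups. The number of cells limits the precision of these values.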

Other observations

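The 7 fixed Triton cells were outside the order of cells. Their uncentred mean log2(CPM + 1) of the 8 score genes was 1.28 to 4.04, with a median of 2.99, while the 38 scored cells held 4.97 to 8.00. Up to 4 of the 8 score genes were at 0 in such a cell.

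The middle cells are set beside both sides for the G1 cyclin and E2F list and for the G2/M list. Centred on the preparation, the mean of the G1 cyclin and E2F list averaged 0.31 in the high cells (SD 0.58). It averaged 0.07 in the middle cells (SD 0.47) and -0.38 in the low cells (SD 0.29). Live FRISCR cells did not keep this order. There it was -0.12 to 0.24 in the high cells, 0.04 to 0.89 in the middle cells and -0.68 to -0.42 in the low cells. The mean of the G2/M list averaged -0.54 in the high cells, 0.26 in the middle cells and 0.24 in the low cells. The closeness of middle and low cells was pooled over preparations that differed. In live FRISCR cells the list mean was -1.15 to 0.66 in the middle cells and 0.59 to 1.55 in the low cells. In fixed FRISCR cells it was -0.70 to 1.39 in the middle and -0.83 to 0.48 in the low cells. In live Triton cells it was 0.17 to 0.90 in the middle and -0.37 to 0.54 in the low cells. The SD over cells of the G2/M list was 0.57 in the high cells, 0.66 in the middle cells and 0.76 in the low cells.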
